A study of Mus musculus with 6 samples.

Results

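Ribosome biogenesis genes encode the nucleolar proteins that transcribe, modify, cut and assemble ribosomal RNA into ribosomal subunits. The genes described here were 35 listed nucleolar and RNA polymerase I genes, taken by name from a list. Of these, 34 had a probe set named for 1 gene, out of 19938 genes tested in all. Ppan, a large-subunit assembly factor, has its 1 probe set shared with another gene and was not analysed here. The mutants were embryos in which both copies of a floxed Bcl11a gene were deleted (Bcl11aΔflox/Δflox), and the controls were Bcl11a+/+ embryos. The neocortex of 3 mutant and 3 control embryos was dissected at embryonic day 14.5, and each embryo gave 1 Affymetrix Mouse Gene 1.0 ST array of log2 values. The labels name neither the Cre line nor the cells that lost the gene.

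In the nucleolus, RNA polymerase I copies the ribosomal DNA into 1 long precursor, and small nucleolar RNPs (snoRNPs) guide methylation and pseudouridylation of that RNA. Assembly factors, helicases and GTPases then fold and cut it into the small and the large ribosomal subunit. In the embryonic cortex, dividing progenitors must make new ribosomes to grow between divisions, and Myc is a known activator of many of these genes. The question was whether loss of Bcl11a, which encodes a zinc finger transcription factor, was accompanied by a change in this set.

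No ribosome biogenesis gene passed the test. Over all genes, limma called 57 of 19938 at an adjusted p under 0.05, which is 0.286% (0.246% higher and 0.0401% lower in mutants), and it called 0 of the 34 members. At an unadjusted p under 0.05 limma again held 0 of the 34 members, against 1207 genes or 6.05% of all genes. The adjusted p of each of the 34 members was 0.9995. Their log2 differences of mutant minus control lay between -0.14 for Npm1 and 0.14 for Rrp9, a change of at most 1.10-fold. The median difference was -0.015 over the members and 0.019 over all genes. Of the 34 members, 12 had a positive difference (35.3%), against 60.3% of all genes. All genes include ones dimmer than any member, and the share among genes of like brightness was not computed.

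The intervals limit how large a change could have gone unseen. For 27 of the 34 members the 95% limma interval of the difference lay within a 1.2-fold change in either direction, as it did for 65.8% of all genes. The other 7 were Npm1, Rrp9, Gar1, Rcl1, Bysl, Wdr12 and Nip7, and the widest bound among the members, that of Rrp9 at 0.35, is a 1.28-fold change. The arrays of the 2 groups did not overlap for 3 members (8.82%), Rrp12, Bop1 and Wdr12, against 10.5% of all genes. The range over the 6 embryos was between 0.03 for Nop56 and 0.42 for Nip7. Because RMA forces the arrays to 1 common distribution, a rise or fall shared by most transcripts would be hidden, and ribosomal RNA itself was not measured. In dissected tissue, fewer cells of a type and less RNA per cell cannot be told apart.

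**Figure D1:**
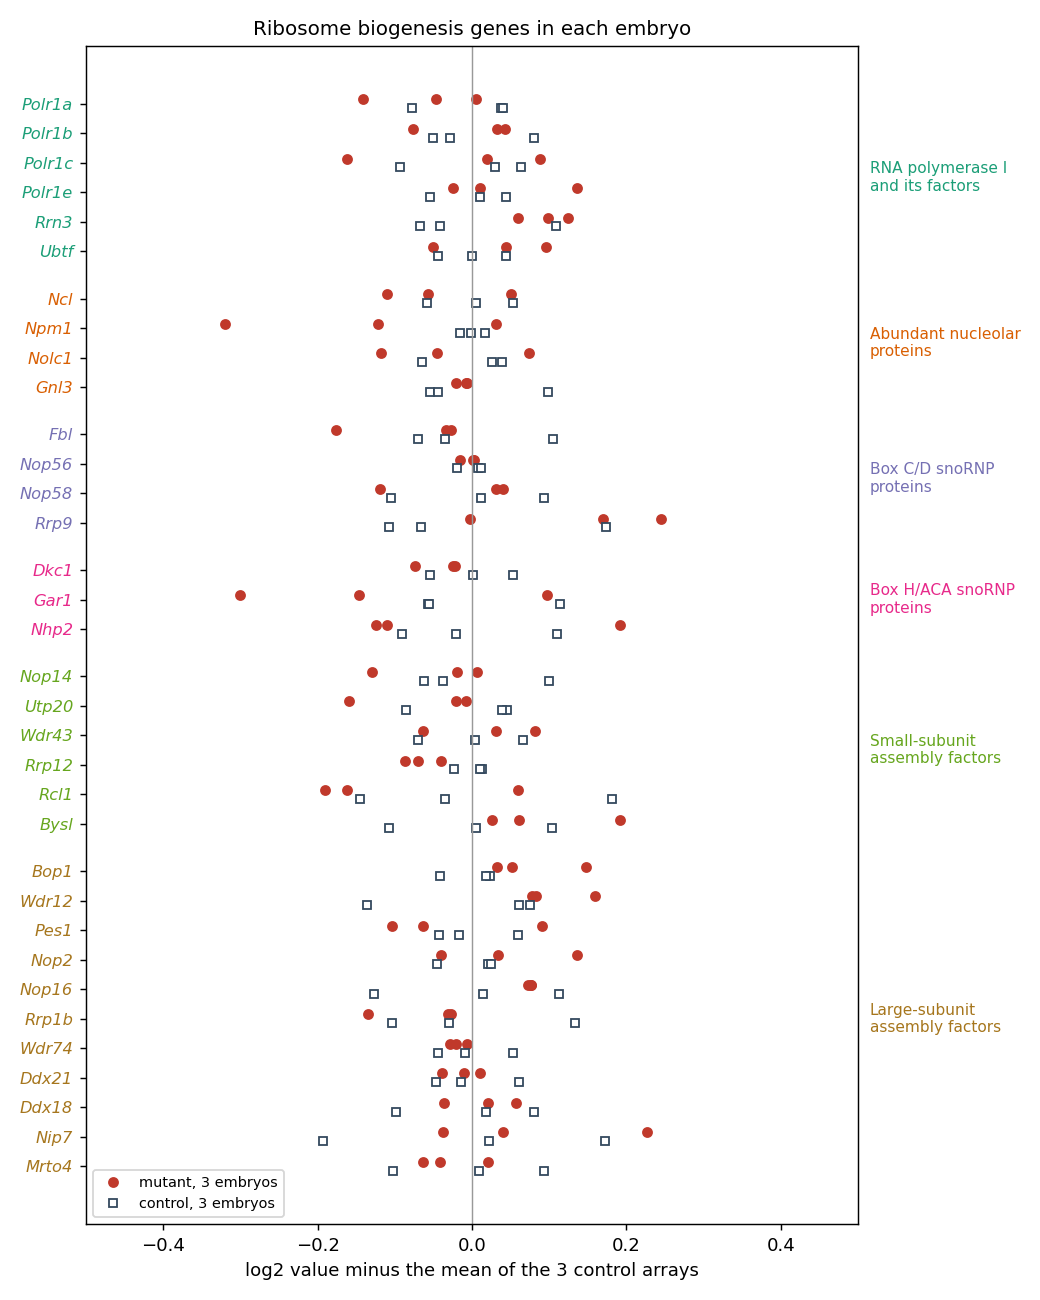
Log2 value of each of the 34 members in each embryo, minus the mean of the 3 control arrays, with mutants as filled circles and controls as open squares, grouped by role. Most circles fall among the squares of the same gene, and the mutant value farthest from its control mean is that of Npm1 in mutant replicate 1.

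The targeted gene and Myc differed on the same arrays. Bcl11a averaged 11.41 ± 0.08 in mutants and 12.25 ± 0.05 in controls (SD, n = 3 each), with a log2 difference of -0.84 (limma adjusted p = 0.00201). The exact two-sided permutation p of Bcl11a was 0.1, which is as low as this design of 3 and 3 arrays allows. The labels do not say whether its probes cover the deleted sequence. Myc read 9.17, 9.23 and 8.98 in mutants, against 9.58, 9.73 and 9.63 in controls. All 3 mutant values of Myc were below all 3 control values, and its difference of -0.52 ± 0.08 (SE) is a 1.43-fold fall (limma adjusted p = 0.0480). Myc did not pass in any fit without 1 array (adjusted p up to 0.207). Mycn, the Myc paralog of neural progenitors, was at 10.77 ± 0.01 in mutants and 10.74 ± 0.04 in controls (SD, n = 3 each). Its difference was 0.03 (limma adjusted p = 0.9995). Mycl, another paralog, was at 9.48 ± 0.08 in mutants and 9.33 ± 0.06 in controls (SD, n = 3 each), a difference of 0.15. All 3 mutant values of Mycl were above the controls, and it did not pass (limma adjusted p = 0.824). Max, the partner that Myc proteins need to bind DNA, differed by 0.06.

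Myc and Max bind the E-box, CACGTG, so the promoters of the members were searched for these letters. RefSeq promoters of build GRCm38.p6, from 250 bases before to 50 after a gene's start, were at hand for 30 of the 34 members and for 15013 of the tested protein-coding genes. Of the 30, 5 held CACGTG, which is 16.7%, against 9.57% of the tested genes. They were Rrn3, Nop2, Pes1, Utp20 and Wdr43. CCGGAAG, a motif of ETS factors searched on both strands, was in 9 of the 30 (30%) and in 13.8% of the tested genes. The palindromic NRF1 motif was in 0 of the 30 and in 1.67% of the tested genes. The 3 stretches that follow show the E-box in capitals for 1 gene of each role group that holds it, on the strand of the gene. For Rrn3 and Nop2 they are the 250 bases before the start, and for Utp20 the 28 bases around a match after the start.
Rrn3, chr16:13780449-13780698, plus strand: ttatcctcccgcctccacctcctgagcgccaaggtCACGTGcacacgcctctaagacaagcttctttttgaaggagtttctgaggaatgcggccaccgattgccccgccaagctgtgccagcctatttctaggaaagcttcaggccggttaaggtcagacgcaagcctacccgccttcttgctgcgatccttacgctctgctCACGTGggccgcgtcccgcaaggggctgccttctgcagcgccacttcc
Nop2, chr6:125131633-125131882, plus strand: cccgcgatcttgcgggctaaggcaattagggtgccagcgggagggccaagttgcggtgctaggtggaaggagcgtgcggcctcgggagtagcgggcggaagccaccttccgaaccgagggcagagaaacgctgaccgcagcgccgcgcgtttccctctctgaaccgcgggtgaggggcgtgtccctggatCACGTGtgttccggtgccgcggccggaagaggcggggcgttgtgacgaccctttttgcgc
Utp20, chr10:88826765-88826792, minus strand: cagcggcactaactaCACGTGaggaaaa
The E-boxes of Rrn3 begin 215 and 48 bases before the start, and that of Nop2 begins 60 bases before it. The log2 differences of the 5 genes were 0.09 for Rrn3, 0.04 for Nop2, 0.02 for Wdr43, -0.03 for Pes1 and -0.06 for Utp20. Thus 3 were positive and 2 negative, but not all of these signs held. Wdr43 turned negative under array weights and without mutant replicate 3 or control replicate 1, and Nop2 without mutant replicate 1. Pes1 turned positive without mutant replicate 2 or control replicate 3. A match of letters is a description and not a measured binding site.

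RNA polymerase I and its factors differed by -0.06 to 0.09. Rrn3, which joins the polymerase to the ribosomal DNA promoter in response to growth signals, read 11.83, 11.80 and 11.76 in mutants, against 11.64, 11.81 and 11.66 in controls. The value of control replicate 2 lay among the mutants, so the groups overlapped, and the difference of 0.09 had a 95% interval of -0.06 to 0.25. Polr1a and Polr1b, the large subunits that form the catalytic centre, differed by -0.06 and -0.0006. Polr1c, a subunit shared with RNA polymerase III, was at 10.78 ± 0.13 in mutants and 10.80 ± 0.08 in controls (SD, n = 3 each). Polr1e, a subunit that takes part in initiation, and Ubtf, the HMG-box factor that keeps ribosomal DNA open, differed by 0.04 and 0.03.

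The abundant nucleolar proteins all had negative differences, none past the test. Gnl3 turned positive with array weights or without control replicate 3, and Nolc1 without mutant replicate 3. Npm1, nucleophosmin, a chaperone of histones and ribosomal proteins, read 11.31, 11.66 and 11.51 in mutants, against 11.63, 11.62 and 11.65 in controls. Mutant replicate 1 was the lowest and mutant replicate 2 the highest of the 6, so the groups overlapped around a tight control group. The Npm1 difference of -0.14 had a 95% interval of -0.34 to 0.06, and without mutant replicate 1 it was -0.04. Npm1 is also the 93rd nearest of the tested genes to Bcl11a on chromosome 11. Ncl, nucleolin, an RNA-binding protein of the nucleolus, read 11.81, 11.87 and 11.97 in mutants, against 11.93, 11.86 and 11.98 in controls. The groups of Ncl overlapped over most of their range, with a difference of -0.04. Nolc1, a chaperone of snoRNPs, differed by -0.03. Gnl3, nucleostemin, a GTPase known from stem and progenitor cells, was at 9.52 ± 0.01 in mutants and 9.53 ± 0.09 in controls (SD, n = 3 each).

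Among the snoRNP proteins, Rrp9 had the most positive and Gar1 the most negative difference. Rrp9, which binds the snoRNA needed for the first cuts of the precursor, read 9.61, 9.54 and 9.36 in mutants, against 9.26, 9.54 and 9.30 in controls. The highest control value of Rrp9 was above 2 of the 3 mutant values, and the difference of 0.14 had an interval of -0.08 to 0.35. When 1 array was left out, the Rrp9 difference lay between 0.083 and 0.22. Gar1, a structural protein of the pseudouridylation complex, read 9.89, 10.04 and 10.28 in mutants, against 10.13, 10.13 and 10.30 in controls. The mutant values of Gar1 spread over a wider range than the control values and reached into them, with a difference of -0.12 and an interval of -0.35 to 0.12. Without mutant replicate 1 the Gar1 difference was -0.024, and without mutant replicate 3 it was -0.22. Dkc1, the pseudouridine synthase of this complex, and Nhp2, another of its core proteins, differed by -0.04 and -0.01. Nop56 and Nop58, scaffold proteins of the methylation complex, differed by -0.0037 and -0.02. Nop56 had the smallest range over the 6 embryos of any member, 0.03 on the log2 scale, with 11.76 ± 0.01 in mutants and 11.77 ± 0.02 in controls (SD, n = 3 each).

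The small-subunit assembly factors differed by -0.10 to 0.09. Bysl, a factor that stays with the small-subunit precursor on its way out of the nucleolus, read 9.69, 9.56 and 9.52 in mutants, against 9.39, 9.50 and 9.60 in controls. Control replicate 3 lay above 2 of the mutants, and the Bysl difference was 0.09 with an interval of -0.08 to 0.27. Rrp12, a repeat protein needed for export of the subunits in yeast, read 8.65, 8.63 and 8.68 in mutants, against 8.73, 8.73 and 8.70 in controls. The highest mutant value of Rrp12 lay just under the lowest control value, and its difference of -0.07 was small (interval -0.19 to 0.06, limma adjusted p = 0.9995). Nop14 and Utp20, large proteins of the complex that folds the small-subunit precursor, differed by -0.05 and -0.06. Wdr43, a WD-repeat protein of the same complex, differed by 0.02. Rcl1, a cyclase-like protein of early precursor processing, was at 9.32 ± 0.14 in mutants and 9.42 ± 0.17 in controls (SD, n = 3 each).

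Large-subunit assembly factors were split in sign, with 6 positive and 5 negative among the 11 measured. Bop1, Wdr12 and Pes1 encode the proteins of 1 complex that is needed to process the large-subunit RNAs. Bop1 read 10.29, 10.17 and 10.19 in mutants, against 10.16, 10.10 and 10.16 in controls. All 3 mutant values of Bop1 were above the controls, the lowest of them only just, and the difference was 0.08 (interval -0.06 to 0.22, limma adjusted p = 0.9995). Wdr12 read 9.56, 9.55 and 9.64 in mutants, against 9.34, 9.54 and 9.55 in controls. Its groups also did not overlap on this probe set, with a difference of 0.11 and an interval of -0.06 to 0.27. Pes1 differed by -0.03, so the genes of this complex did not have differences of 1 sign. Nop2, an RNA methyltransferase, and Nop16 differed by 0.04 and 0.07. Nop16, a large-subunit factor of the nucleolus, was nearly level among mutants at 10.80 ± 0.0023 and averaged 10.73 ± 0.12 in controls (SD, n = 3 each).

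The helicases of the set, Ddx21 and Ddx18, differed by -0.01 and 0.01. Ddx21 also binds to the RNA polymerase I machinery, and its values were 10.54 ± 0.03 in mutants and 10.56 ± 0.05 in controls (SD, n = 3 each). Nip7, a late-acting factor, differed by 0.08, and read 8.71, 8.79 and 8.97 in mutants, against 8.55, 8.77 and 8.92 in controls. The groups of Nip7 overlapped over most of their range. Rrp1b, a nucleolar protein that also binds chromatin, and Wdr74, a WD-repeat protein, differed by -0.06 and -0.02. Mrto4, a protein similar to a ribosomal stalk protein, read 8.64, 8.70 and 8.62 in mutants, against 8.58, 8.77 and 8.69 in controls. The Mrto4 mutants lay inside the control range, with a difference of -0.03.

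**Figure D2:**
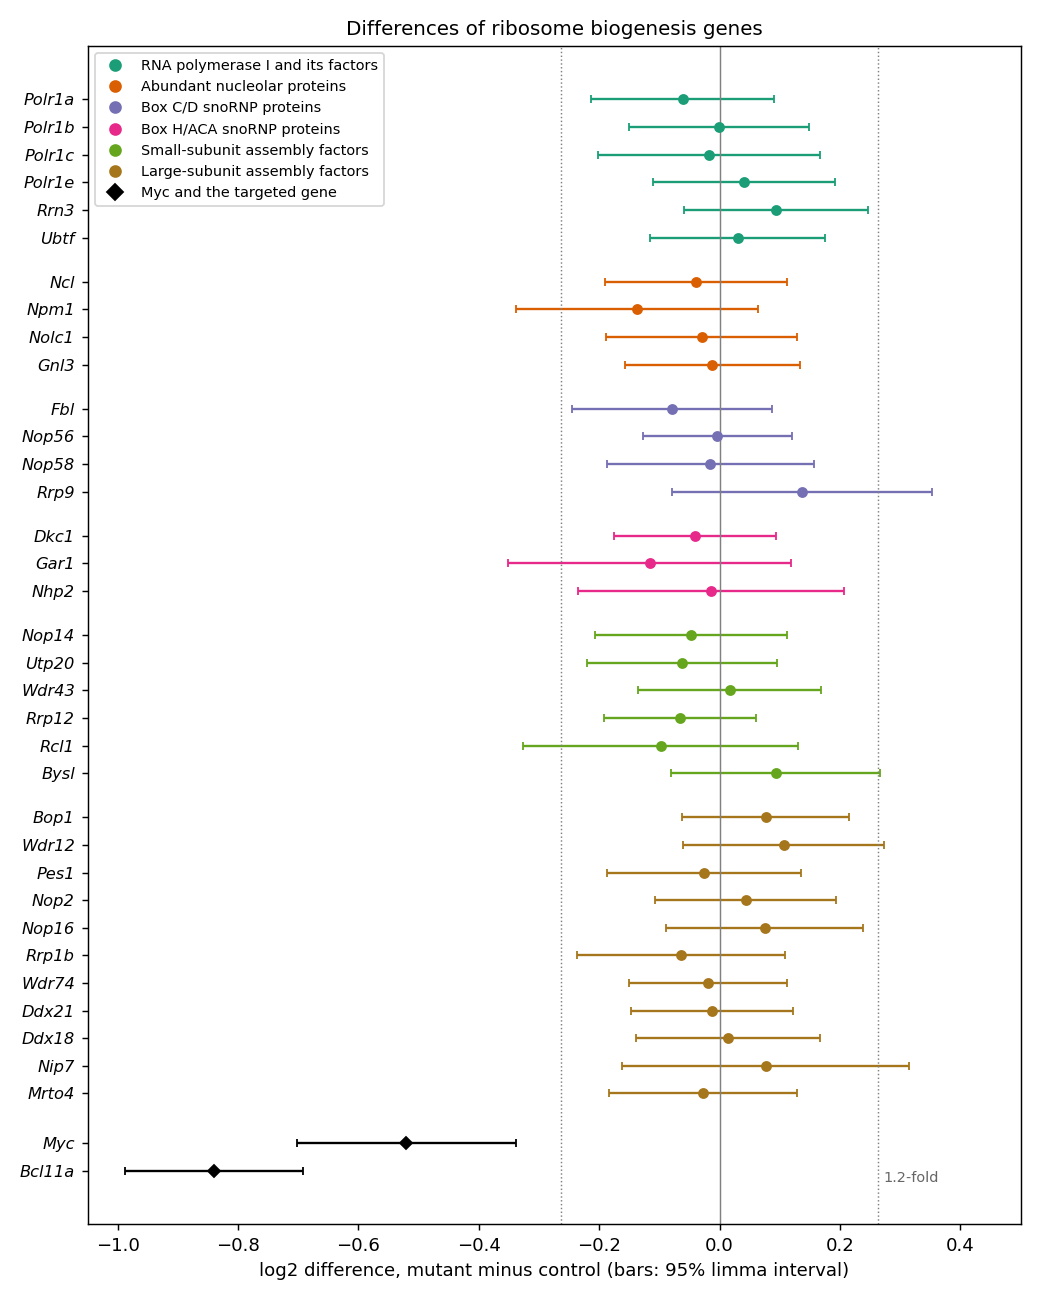
Log2 difference of mutant minus control for each member with its 95% limma interval, coloured by role, with Myc and Bcl11a as diamonds below and dotted lines at a 1.2-fold change. Each member interval includes 0 and 7 reach past a dotted line, while the intervals of Myc and Bcl11a lie wholly below 0.

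Fbl, Wdr12, Ddx18 and Mrto4 each had 2 probe sets, and the values given above are those of the brighter one. Probe set numbers on this array run along the chromosomes, so the chromosomes of the 20 nearest numbered probe sets with 1 gene were looked up. For each of these 4 genes the brighter probe set was numbered among genes of another chromosome, and the dimmer one among genes of its own. For Fbl, on chromosome 7, 17 of the 20 neighbours of the brighter probe set lay on chromosome 17, and all 20 of the dimmer one on chromosome 7. For Wdr12, on chromosome 1, 18 of the 20 neighbours of the brighter probe set lay on chromosome 7. For Ddx18, also on chromosome 1, 17 lay on chromosome 6, and for Mrto4, on chromosome 4, 19 lay on chromosome 12. Whether these probe sets read near-identical copies of the genes was not tested, and the values of the 4 genes are uncertain for that reason. Each of the 30 members with 1 probe set was numbered among genes of its own chromosome.

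The choice of probe set turned the sign for Fbl and Wdr12. Fbl, fibrillarin, the methyltransferase of the snoRNPs, read 10.70, 10.85 and 10.84 in mutants, against 10.80, 10.98 and 10.84 in controls on the brighter probe set, a difference of -0.08. On the dimmer one it read 10.70, 10.53 and 10.62 in mutants, against 10.46, 10.70 and 10.56 in controls, a difference of 0.04. The groups overlapped on both. Wdr12 on its dimmer probe set read 8.39, 8.51 and 8.62 in mutants, against 8.38, 8.54 and 8.66 in controls. There the mutants lay within the control range and the difference was -0.02, so the groups without overlap belonged to the brighter probe set alone. Ddx18 and Mrto4 gave 0.01 and -0.02 on the dimmer probe sets, close to the 0.01 and -0.03 of the brighter ones. None of the 8 probe sets passed limma when every probe set was tested singly (adjusted p = 0.9995 each).

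**Figure D3:**
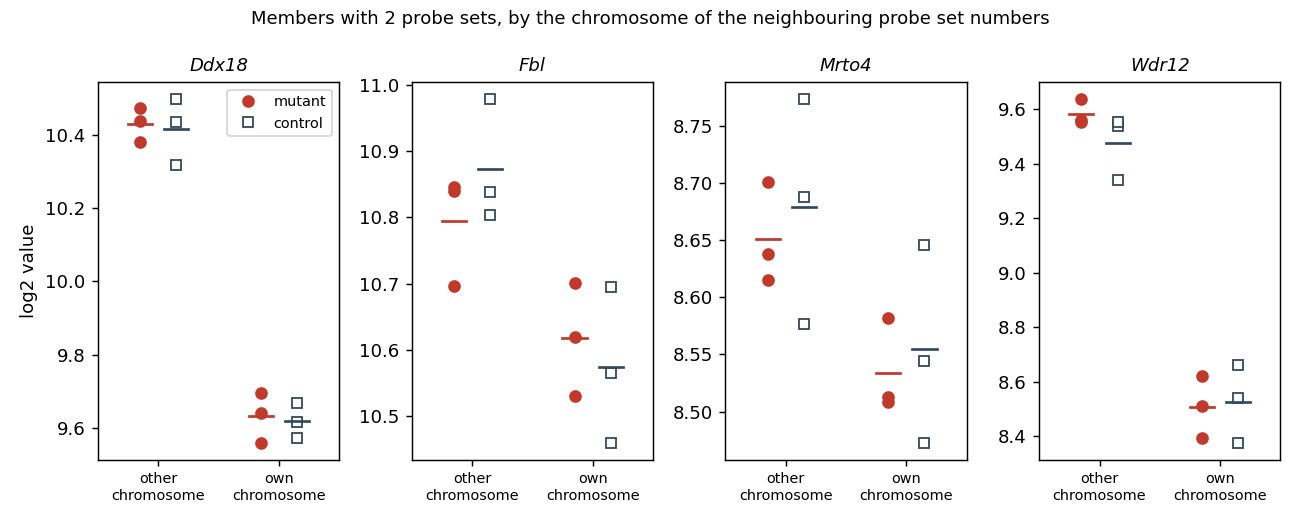
Log2 values of the 3 mutant (filled circles) and 3 control (open squares) embryos on both probe sets of Ddx18, Fbl, Mrto4 and Wdr12, with bars at the group means and a separate axis for each gene. The left pair is the brighter probe set, numbered among genes of another chromosome, and the order of the group means turns between probe sets for Fbl and Wdr12.

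By the median over the members, the control arrays lay farther apart than the mutant arrays, though this did not hold for each gene. Npm1 had an SD of 0.18 in mutants and 0.02 in controls, while Nop16 had 0.0023 and 0.12. Control replicate 1 was the lowest of the 6 arrays for 13 members and control replicate 3 the highest for 12. Mutant replicates 1, 2 and 3 were the lowest for 8, 8 and 2 members and the highest for 8, 2 and 5. Taken as the median deviation from each gene's mean, the members stood at 0.02, -0.01 and 0.01 in mutant replicates 1, 2 and 3. The same measure was -0.03, -0.0002 and 0.06 in control replicates 1, 2 and 3, so the mutants lay between the extreme controls. Without control replicate 3 the median difference of the members was 0.01, and without control replicate 1 it was -0.03.

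The wider pathway was read from 6 further lists with 223 entries, of which 195 were measured. No gene of these lists passed limma in either direction. Of the 195, 87 had a positive difference (44.6%, against 60.3% of all genes) and 108 a negative one. An unadjusted p under 0.05 was found for 2. Both of these 2 genes were in the list of further RNA polymerase I genes, of which 14 of 14 were measured. Taf1d, a subunit of the factor that selects the ribosomal DNA promoter, was at 11.64 ± 0.12 in mutants and 11.93 ± 0.21 in controls (SD, n = 3 each), a difference of -0.29 (limma adjusted p = 0.668). Polr2k, a small subunit shared by the nuclear RNA polymerases, was at 8.12 ± 0.05 in mutants and 7.89 ± 0.17 in controls (SD, n = 3 each), a difference of 0.24 (limma adjusted p = 0.630).

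The other lists stayed closer to 0. All 10 further snoRNP genes were measured, with differences of -0.05 to 0.11 and a median of 0.0049. Of 47 further small-subunit genes 46 were measured, between -0.14 for Emg1, an rRNA methyltransferase, and 0.15 for Ddx47, a helicase, with a median of 0.01. Of 58 further large-subunit genes 56 were measured, between -0.12 for Nmd3, the export adaptor of the large subunit, and 0.11 for Zfp622, with a median of 0.01. The 14 measured genes of the exosome and of pre-rRNA nucleases lay between -0.09 for Exosc8 and 0.04 for Dis3. Cytosolic ribosomal protein genes, of which 55 of 79 were measured, had a positive difference in 13 (23.6%, against 60.3% of all genes) and a negative one in 42. Their median difference was -0.04, with a range of -0.14 for Rpl37a to 0.11 for Rps9. The median deviation from each gene's mean was -0.09, 0.02 and 0.03 in mutant replicates 1, 2 and 3. It was -0.02, 0.01 and 0.06 in control replicates 1, 2 and 3, so only mutant replicate 1 lay below the controls. Ribosomal protein genes have many near-identical processed copies in the genome, so their array values are uncertain.

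**Figure D4:**
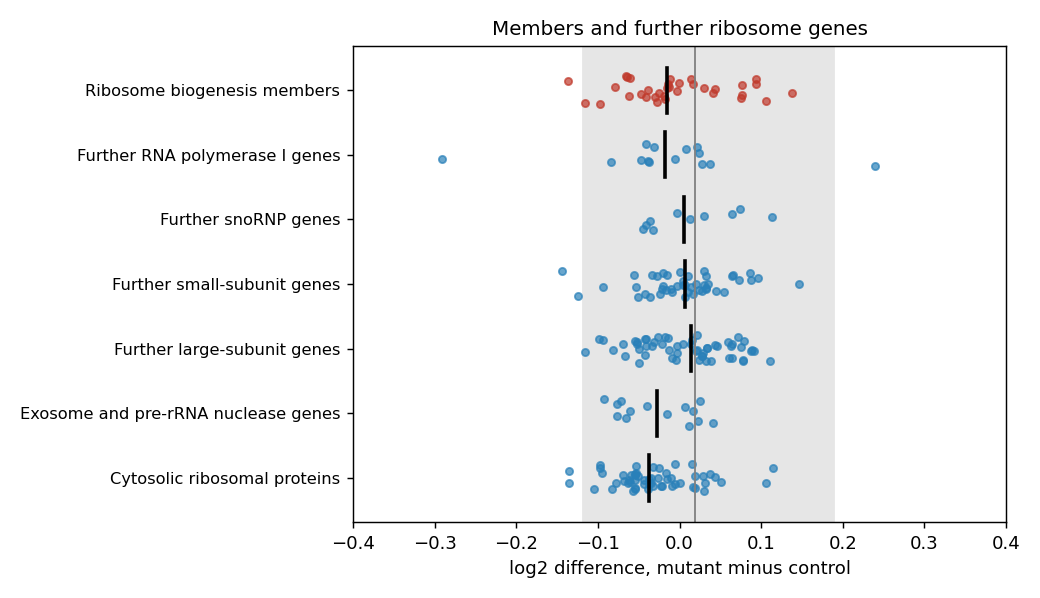
Log2 difference of mutant minus control for each measured gene of the members and of the 6 further lists, with a black bar at each median. The grey band holds the middle 90% of all genes tested, from -0.12 to 0.19, the thin line is their median, and Taf1d and Polr2k are the points farthest from 0.

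Markers of the tissue and of other cells were read on the same arrays. Of 11 neocortical markers 9 were measured, and Tbr1, Neurod6, Pax6 and Emx1 differed by 0.0018, 0.02, 0.02 and -0.0018. Sox2 differed by -0.00074, Neurod2 by 0.07 and Emx2 by -0.15. Bcl11b, a marker of deep-layer neurons, and Eomes, a marker of intermediate progenitors, differed by 0.29 and 0.21, with all 3 mutants above all 3 controls for both. None of the 9 passed the test (limma adjusted p = 0.219 for Bcl11b and 0.503 for Eomes). Of 12 genes of cycling cells, 11 were measured and 10 had a negative difference, none past the test, with Ccnd1, the cyclin D1 gene, at -0.41 (limma adjusted p = 0.139). The mean log2 value of the cycling list was 11.08 to 11.136 in mutants and 11.142 to 11.29 in controls, so all 3 mutants lay just below all 3 controls. The gap between 11.136 and 11.142 is so narrow that this order depends on Ccnd1, whose fall was the largest of the list. The median difference of the list was -0.07. Taken singly, Ccnd1, Mcm3 (-0.22) and Cdk1 (-0.07) had all 3 mutants below all 3 controls (27.3%, against 10.5% of all genes without overlap). The other measured genes of this list overlapped. The erythroid list was at 8.95 to 9.06 in mutants and 7.54 to 7.72 in controls, with 6 of 8 measured genes past the test and higher. Its globin genes Hbb-bh1, Hba-x and Hbb-y differed by 5.02, 1.38 and 0.59, so Hbb-bh1 weighs most in that mean. The genes other than globins lay between 0.55 for Epb42 and 1.47 for Slc4a1. Whether more such cells or more RNA per cell was present was not tested. The list of meninges and pericytes was at 7.46 to 8.31 in mutants and 7.21 to 7.32 in controls, with mutant replicate 1 the highest and none of 9 genes past the test. The lists of microglia (7.01 to 7.20 in mutants and 6.84 to 6.93 in controls), endothelium (8.44 to 8.85 and 8.36 to 8.62) and ganglionic eminence (8.74 to 8.95 and 8.59 to 8.81) held no gene past the test. Differences were positive for 6 of 6 microglial, 6 of 6 endothelial, 7 of 7 eminence and 8 of 9 meningeal genes, against 60.3% of all genes. The groups did not overlap for 4, 1, 0 and 4 of these, against 10.5% of all genes. The part of these cells in the values of the members was not tested.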

How the data were processed

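Per the labels' protocols and series text, RNA of each embryo was labelled with the whole-transcript sense assay and hybridised to its own array. The deposited values are on the log2 scale and were made by the authors with Affymetrix Expression Console and RMA, per the submitters' processing notes. Of 35556 probe sets, 21789 had 1 gene symbol in the platform annotation at GEO, and each gene was represented by its probe set of highest mean over the 6 arrays. The genotypes were compared by lmFit and eBayes of limma 3.58.1 (R 4.3.3), with no covariate and Benjamini-Hochberg adjustment over 19938 genes. Each p for a gene comes from this two-sided fit, checked on simulated data. The sex of the embryos was not in the fit, and its balance between the groups was not tested. The most negative difference of all genes was that of the X-linked Xist, at -2.30 with an interval down to -7.12. Of the members, Dkc1 lies on the X chromosome. No filter on low values was set, and the lowest value of a member, 8.55, lay above each array's median. Levels of different probe sets were ranked only to choose the probe set of a gene, the dim genes and the members of highest and lowest mean. They were not tested against each other. Arrays have no read depth, so their number limits the precision.

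The members and lists were chosen with earlier results of these data known. Values per array were given for the member with the smallest p in each role group and for those with the highest (Ncl) and lowest (Mrto4) mean. Those of Rrp12, Bop1, Fbl, Nip7 and the dimmer probe sets were added after their values were seen. Over all genes, the deviations of same-numbered arrays correlated at 0.03, -0.14 and 0.08, which gives no pairing. The members alone were not examined for pairing. Alternatives covered normalization, probe set choice, dim genes, weights, variance prior, threshold, the replicate block and each array left out.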

Additional observations from a re-analysis of the deposited data

How the results depend on the processing

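Under each of 16 alternatives limma called 0 of the 34 members, and the largest member difference in any of them was 0.22 in size. The lowest adjusted p of a member was 0.551, for Fbl with array weights. The median difference of the members lay between -0.03 and 0.01 when 1 array was left out. Of 514 values of members under the alternatives, 474 kept their sign or were 0 and 40 turned it, in 21 members, and none of the 40 was larger than 0.054. Many of the 474 could not turn. Leaving out dim genes, the variance prior, the replicate block, single testing and the looser threshold leave each difference as it was. Averaging probe sets alters only the members with 2 probe sets. Bcl11a passed in each of the 15 alternatives run for it. The number of genes called over all genes was 57. It was 217 with array weights, 34 with the replicate block, 107 at an adjusted p under 0.1, and 20 to 50 when 1 array was left out, where fewer arrays enter the fit. Myc did not pass with the replicate block (adjusted p = 0.0859) or with every probe set tested singly (0.0594). The replicate block changed no call of a member or of Bcl11a. Over all genes, same-numbered arrays did not deviate together, and this was not computed for the members alone.

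Each log2 difference that turned its sign belonged to a gene past no threshold; the cause was not tested. With quantile normalization repeated, Nop56 was at 0.0015. With median centring, Polr1b was at 0.0075 and Nop56 at 0.0045. With array weights, Polr1b was at 0.0053, Gnl3 at 0.018, Nop58 at 0.0030, Wdr43 at -0.011, Ddx21 at 0.0066 and Ddx18 at -0.012. With the probe sets numbered among genes of their own chromosome, an alternative chosen after seeing the data, Fbl was at 0.044 and Wdr12 at -0.019. When 1 array was left out, the range was -0.026 to 0.039 for Polr1b, -0.071 to 0.054 for Polr1c, -0.0073 to 0.073 for Polr1e, -0.0032 to 0.070 for Ubtf and -0.082 to 0.015 for Nolc1. It was -0.039 to 0.037 for Gnl3, -0.013 to 0.0023 for Nop56, -0.068 to 0.036 for Nop58, -0.12 to 0.041 for Nhp2 and -0.078 to 0.0022 for Nop14. It was -0.018 to 0.056 for Wdr43, -0.083 to 0.014 for Pes1, -0.0031 to 0.085 for Nop2, -0.12 to 0.0023 for Rrp1b and -0.041 to 0.0077 for Wdr74. It was -0.036 to 0.017 for Ddx21, -0.035 to 0.054 for Ddx18, -0.020 to 0.16 for Nip7 and -0.079 to 0.019 for Mrto4. With 3 arrays a group, changes of the size of these intervals cannot be told from 0.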
